A study of Bos taurus with 12 samples.

Results

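Transcript abundance in the endometrium of heifers of high receptivity (HR) was compared at 2 stages of the estrous cycle, day 7 and day 3. Of the 12 arrays of the study, the 6 used for this comparison were 3 titled as receptive endometrium at day 3 (HR3) and 3 titled as receptive endometrium at day 7 (HR7). All animals were Simmental heifers with a synchronized estrus, and the endometrium was sampled with a cytobrush. Each array held one pool of RNA from 5 brush samples, so 15 samples stood behind each group. An animal was assigned to HR in retrospect, when it was pregnant at day 28 after an in vitro-produced blastocyst had been transferred at day 7 of the next cycle. The other 6 arrays came from heifers of low receptivity (LR), sampled in the same way, which were not pregnant after the transfer. The labels do not say which animals entered a pool or whether an animal entered pools of both days, so p-values measure the spread between pools, each of which already averages several animals.

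In cattle, day 3 lies shortly after ovulation, when the corpus luteum is forming and little progesterone circulates. By day 7 progesterone secretion from the corpus luteum is rising, and an embryo of this age would just have entered the uterus as a morula or blastocyst. Under progesterone the uterine epithelium turns to secretion, and the fluid that it releases (histotroph) feeds the embryo for the weeks before it attaches.

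The values are log2 signals of probe sets, and a difference of log2 values is given as HR7 minus HR3 with the standard error (SE) of the limma fit over all 12 arrays. A transcript is said to rise or fall at a Benjamini-Hochberg adjusted p under 0.05 over 24016 probe sets. A gene is represented by its probe set with the highest mean signal, which gave 9155 named genes. The medians of the 6 HR arrays lay between 6.66 and 6.77, and signals below the array median were measured less precisely: the median SE was 0.14 for probe sets above the median signal and 0.29 for those below. Correlations between pools were taken over the 12011 probe sets with a mean over the 12 arrays above the median. Pools of the same day correlated at 0.966 to 0.977 and pools of different days at 0.887 to 0.919. On the same probe sets the first principal component held 69.7% of the variance of the 6 arrays and separated the days. The 5' to 3' differences of the spiked dap control, a measure of how evenly the labelled RNA was made, overlapped between the days (-2.64, -1.53 and -1.37 in HR3 and -2.36, -1.86 and -1.54 in HR7). Those of the bovine actin control were 0.17, -0.22 and -0.86 in HR3 and -0.30, -0.77 and -1.16 in HR7. In LR they were -0.62, -0.10 and 0.55 on day 3 and -1.53, -1.01 and -0.62 on day 7. Those of the GAPDH and EF1A controls overlapped between HR3 and HR7. Whether the quality of the sample RNA differed between the days was not tested.

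The tissue label was checked against epithelial markers. EPCAM, the epithelial cell adhesion molecule, had signals of 12.98, 13.11 and 13.18 in HR3 and 13.03, 12.92 and 12.81 in HR7. KRT18, KRT19 and MUC1, which mark simple glandular epithelium, were likewise above the array median in all 6 pools, and none of them passed the test for the day. Of all 18 uterine epithelium markers on the array, ESRP1, a splicing factor of epithelia, rose (0.38) and CDH1, the epithelial cadherin, fell (-0.41). Leaving out single HR pools gave 0 to 2 rises and 0 or 1 fall in this list: no marker rose without HR3 replicate 1, HR3 replicate 2, HR7 replicate 1 or HR7 replicate 2, 2 rose without HR3 replicate 3, and none fell without HR3 replicate 2, HR3 replicate 3, HR7 replicate 2 or HR7 replicate 3. The summed signal of the 18 lay between 15.30 and 15.53 on the log2 scale in HR3 and between 15.35 and 15.63 in HR7, so that the ranges overlapped. MSX1, a homeobox factor of the Müllerian tract, differed by 0.02 ± 0.09.

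Between day 3 and day 7, 3463 of 24016 probe sets changed (14.4%). Of these, 1762 rose (7.34%) and 1701 fell (7.08%), in nearly equal numbers. Among the 9155 named genes 1712 changed (18.7%), 903 of which rose (9.86%) and 809 of which fell (8.84%). The large changes were mostly rises, since 102 genes rose by at least 2 log2 units against 39 that fell by as much, and 39 rose by at least 3 against 6. The HR3 and HR7 values did not overlap in 8333 of the 24016 probe sets (34.7%). The median difference over all genes was -0.03. Among the 6268 genes with a mean signal above the median, 12% rose and 10.7% fell. At an unadjusted p under 0.05 the shares were 28.2% of all probe sets (6764), 34.3% of the genes and 40.3% of the genes above the median signal. The number of probe sets called fell to 1851 without HR7 replicate 2, to 2149 without HR3 replicate 2 and to 2293 without HR7 replicate 1, and it rose to 5467 with array weights. None of the 3463 probe sets was called with the other sign in any of these fits. With each array centred on its median, 57.7% of the calls were rises, against 50.9% with the deposited values.

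**Figure D1:**
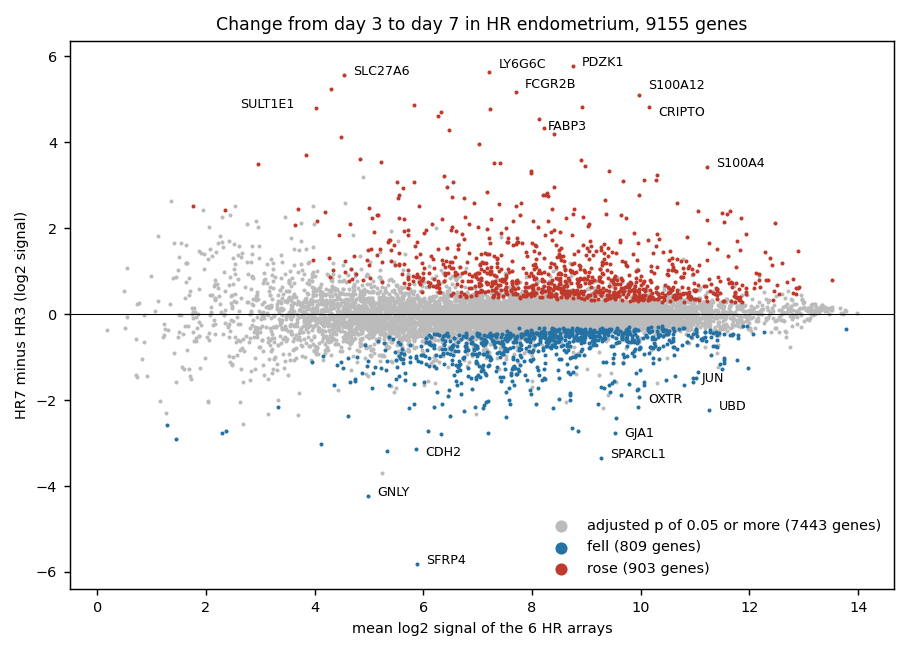
Difference HR7 minus HR3 in log2 signal (vertical axis) against the mean log2 signal of the 6 HR arrays (horizontal axis) for 9155 genes; each point is a gene, red where it rose (903 genes), blue where it fell (809 genes) and grey otherwise. The extremes are PDZK1 at 5.78 and SFRP4 at -5.81.

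The genes with the largest changes were taken from those without overlap between the days, without a value of 0 and with signals above the array median in every pool of the higher day. The 15 with the largest rise included several of epithelial transport and of lipid and proline handling. PDZK1, a scaffold protein that anchors transporters in the apical membrane, had signals of 5.60, 5.59 and 6.40 in HR3 and 11.60, 11.92 and 11.42 in HR7. All HR7 pools lay far above all HR3 pools, and the difference was 5.78 ± 0.46 (adjusted p = 1.75e-05). Like most genes of this group it lay below the array median on day 3, so that the size of the change is less certain than for stronger signals. SLC5A1, the sodium-glucose cotransporter that carries glucose across the apical membrane, rose from 4.07, 4.56 and 4.35 to 8.29, 8.86 and 8.67 (4.28 ± 0.37). FABP3, a fatty acid binding protein, rose from 5.57, 6.17 and 5.82 to 10.13, 10.88 and 10.15 (4.53 ± 0.29). DGAT2, which catalyses the last step of triacylglycerol synthesis, stood at 3.76, 3.69 and 2.73 in HR3, well below the array median, and at 7.76, 8.61 and 8.42 in HR7. PRODH, the mitochondrial enzyme that begins proline breakdown, rose by 4.61 ± 0.45. SCARA5, a scavenger receptor that takes up ferritin, rose by 3.96 ± 0.46, and MGC138914 by 4.69 ± 0.58. CRIPTO, a membrane-bound co-receptor of nodal signaling, was already above the array median on day 3, with signals of 7.90, 7.41 and 7.94, and reached 12.27, 12.91 and 12.52 on day 7. The difference was 28.2-fold (4.82 ± 0.64, adjusted p = 0.000587).

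The other genes of this group included a keratin and several genes of innate immunity. LY6G6C, a GPI-anchored protein of the LY6 family, had signals of 4.22, 4.14 and 4.83 in HR3 and 9.57, 10.44 and 10.08 in HR7. KRT5, the keratin of basal epithelial cells, had 6.12, 6.53 and 5.52 in HR3 and 10.42, 10.16 and 10.60 in HR7. Both went from below the array median to far above it, LY6G6C by 5.63 ± 0.44 and KRT5 by 4.34 ± 0.58. FCGR2B, the inhibitory receptor for IgG, had the lowest adjusted p of these 15 genes (2.47e-07): its signals were 4.79, 5.29 and 5.27 in HR3 and 10.45, 10.18 and 10.26 in HR7. The calgranulins S100A12 and S100A8, calcium-binding proteins made by neutrophils and by squamous epithelia, rose by 5.10 ± 0.33 and 4.82 ± 0.36. CXCL8, the main attractant of neutrophils, rose from 5.06, 4.72 and 4.73 to 10.01, 9.62 and 9.21 (4.78 ± 0.84). CCL2, which attracts monocytes, rose from 6.76, 6.50 and 5.67 to 9.64, 11.84 and 10.03, with the highest value in HR7 replicate 2. All 15 genes kept an adjusted p under 0.05 when any one of the 12 pools was left out.

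**Figure D2:**
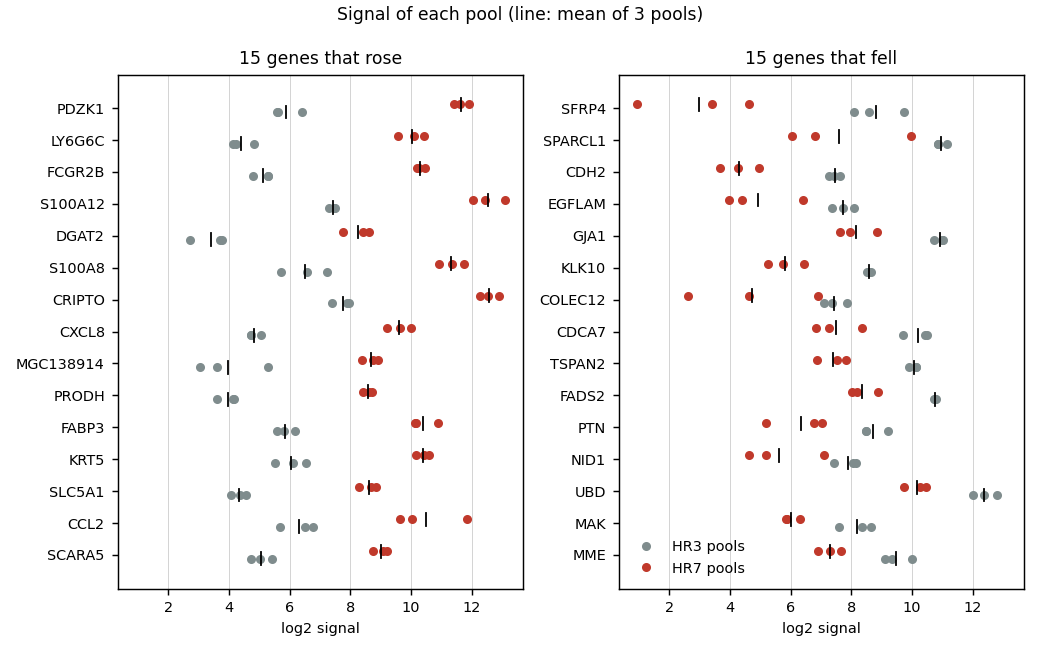
Log2 signal (horizontal axis) of the 15 genes with the largest rise (left) and the 15 with the largest fall (right) under the conditions given in the text; each point is a pool, grey for HR3 and red for HR7, and a black line marks the mean of 3 pools. The HR7 pools lie close together for most genes that rose, whereas SPARCL1, COLEC12 and NID1 have a pool near the HR3 values.

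The largest fall was that of SFRP4, a secreted antagonist of Wnt signaling. Its signals of 8.08, 9.72 and 8.58 in HR3 contrasted with 0.94, 3.40 and 4.62 in HR7, of which all lay below the array median. The difference was -5.81 ± 0.99 (adjusted p = 0.00255). CDH2, the N-cadherin of mesenchymal cells, fell from 7.63, 7.43 and 7.27 to 4.27, 4.96 and 3.67. GJA1, which encodes the gap junction protein connexin 43, fell from 10.72, 10.99 and 11.03 to 7.63, 7.95 and 8.85 (6.82-fold lower). TSPAN2, a tetraspanin of the cell membrane, fell by 2.64 ± 0.28, and KLK10, a secreted kallikrein peptidase, fell by 2.77 ± 0.36. FADS2, the delta-6 desaturase of polyunsaturated fatty acids, went from 10.74, 10.72 and 10.80 to 8.01, 8.86 and 8.17. UBD, a ubiquitin-like protein induced by inflammatory cytokines, remained a strong signal on both days, with 12.78, 12.36 and 11.99 in HR3 and 10.44, 9.74 and 10.26 in HR7. CDCA7, a chromatin-bound protein of dividing cells, fell by 2.72 ± 0.44, and MAK, a kinase of cilia, fell by 2.19 ± 0.31.

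The remaining genes with the largest falls included several matrix proteins. SPARCL1, a secreted relative of the matrix protein SPARC, had signals of 10.86, 11.14 and 10.84 in HR3 and 6.03, 6.81 and 9.97 in HR7. COLEC12, a scavenger receptor with a collagen-like domain, had 7.85, 7.37 and 7.10 against 2.61, 4.64 and 6.90. NID1, which links laminin and collagen in basement membranes, had 8.05, 8.14 and 7.44 against 4.63, 5.17 and 7.08. In each of these HR7 replicate 3 lay near the HR3 pools and the other HR7 pools far below. EGFLAM, another matrix protein, showed the same order with 3.97, 4.40 and 6.39 in HR7. MME, the membrane peptidase neprilysin and a marker of endometrial stroma, fell by 2.18 ± 0.44, and the growth factor PTN fell by 2.38 ± 0.59. These calls were less stable than the rises: the adjusted p of SPARCL1 was 0.0583 without HR7 replicate 2, and that of PTN was 0.0677 without HR3 replicate 3 and 0.0723 without HR7 replicate 1. NID1 no longer passed without HR3 replicate 1 (0.0806), HR3 replicate 2 (0.0866), HR7 replicate 1 (0.106) or HR7 replicate 2 (0.101). COLEC12 passed only with all pools or without HR7 replicate 3 among the fits that left out an HR pool, with adjusted p of 0.0696 to 0.109 in the others, and its difference was -1.67 without HR7 replicate 1. COLEC12 also failed with only the 6 HR arrays (0.0728), and COLEC12 and NID1 failed with the robust prior (0.0797 and 0.0564) and without the intensity trend (0.0755 and 0.0601). In the ordinary linear model COLEC12, NID1, PTN and SPARCL1 all failed, with adjusted p from 0.0638 to 0.118.

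Ovarian steroids act on the endometrium through nuclear receptors, and local enzymes set how much active hormone reaches them. The probe sets of the estrogen receptor ESR1 (4.44, 4.76 and 4.20 in HR3; 4.45, 4.38 and 4.63 in HR7) and the progesterone receptor PGR (4.43, 4.95 and 4.69; 4.82, 4.27 and 4.92) lay below the array median in all 6 pools, and neither passed. Of 24 genes for steroid receptors, coregulators and steroid enzymes, 6 rose and none fell (25% called, against 18.7% of all genes). The 6 are enzymes, a sterol carrier and a coactivator. Without any one HR pool 5 rose, and 1 gene fell without HR3 replicate 1 or HR7 replicate 1. HSD11B2, which inactivates glucocorticoids, rose from 7.69, 7.66 and 7.34 to 9.40, 9.53 and 9.47 (difference 1.90 ± 0.22). The groups were far apart and varied little within a day. SULT1E1, the sulfotransferase that inactivates estrogens, had 1.43, 3.49 and 0 in HR3 and 6.20, 6.74 and 6.34 in HR7. The difference of 4.79 ± 0.97 includes a pool listed at 0, and all but one value lay below the array median. AKR1B1, an aldo-keto reductase that also makes prostaglandin F2 alpha in cattle, rose by 2.36 ± 0.39. STAR, the mitochondrial cholesterol carrier, rose by 1.33 ± 0.26, HSD17B4, an enzyme of steroid and fatty acid oxidation, by 1.26 ± 0.20 and the coactivator PPARGC1A by 0.79 ± 0.24, the last from signals below the array median.

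Of a list of 39 genes known from the luteal-phase endometrium of ruminants, 17 rose and 2 fell. The median difference was 0.55, against -0.03 over all genes. Like the other lists, it was chosen with earlier results of these data known, so its counts describe these genes and are no independent test. Besides DGAT2, CRIPTO, FABP3 and SLC5A1, the 17 that rose included genes for secreted and membrane proteins, sugar carriers and PTGS2. LPL, the lipoprotein lipase that releases fatty acids from triacylglycerols, rose from 5.39, 5.87 and 5.70 to 8.69, 9.58 and 9.23 (3.51 ± 0.39). ANPEP, an aminopeptidase of the apical membrane, rose from 10.34, 10.60 and 10.34 to 12.97, 12.89 and 12.41. SPP1, the adhesion protein osteopontin, rose from 10.15, 10.47 and 9.73 to 12.16, 12.62 and 12.13, and the groups were again far apart. SERPINA14, the uterine serpin or uterine milk protein, had 3.36, 1.63 and 4.09 in HR3 and 4.98, 8.56 and 6.40 in HR7. Its HR7 values were spread widely, most of them below the array median, and the difference was 3.62 ± 1.07 (adjusted p = 0.0394). AREG, a ligand of the EGF receptor, rose by 1.84 ± 0.32 and PIP, the prolactin-induced protein, by 2.21 ± 0.22. S100G, the calcium carrier calbindin D9k, rose by 0.82 ± 0.14 from an already strong signal. Several genes of the list did not pass: MSTN (myostatin) differed by -1.89 at an adjusted p of 0.115, and LIF, a cytokine, by 0.20. The 2 genes that fell were OXTR and CXCL10, described with their pathways.

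Prostaglandins and oxytocin govern the length of the cycle in cattle. Of 28 genes of this pathway on the array, 4 rose and 2 fell (21.4% called, against 18.7% of all genes). PTGS2, the inducible cyclooxygenase that begins prostaglandin synthesis, rose from 4.82, 5.89 and 5.93 to 8.65, 9.98 and 8.57 (3.52 ± 0.75, adjusted p = 0.00844). PTGIS, the prostacyclin synthase, rose from 6.99, 6.17 and 6.14 to 8.93, 8.85 and 9.10. HPGD, which breaks prostaglandins down, rose from 6.84, 7.39 and 8.28 to 9.19, 9.25 and 9.24. PTGES, the inducible prostaglandin E synthase, differed by -0.06 ± 0.29 and did not pass, with 6.85, 7.37 and 6.51 against 7.03, 6.69 and 6.82. OXTR, the oxytocin receptor, fell from 10.79, 10.76 and 11.28 to 8.56, 9.75 and 8.71 (-1.94 ± 0.42, adjusted p = 0.00933). LTA4H, the leukotriene A4 hydrolase, fell by 0.51 ± 0.15, and 1 gene in place of 2 fell without HR3 replicate 1, HR3 replicate 2, HR3 replicate 3 or HR7 replicate 2. The other 2 probe sets of PTGS2, with weak signals, differed by 1.04 and -0.03 and did not pass.

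Genes that carry nutrients, ions and water across the epithelium rose more often than they fell (16 and 2 of 52, median 0.33). SLC27A6, a fatty acid transporter, was listed at 0 in HR3 replicate 1 and had 2.92 and 2.36 in the other HR3 pools, against 6.90, 7.90 and 7.17 in HR7. SLC39A8, a carrier of zinc and manganese, rose from 8.23, 6.59 and 6.92 to 10.77, 10.99 and 10.31. The water channel AQP4 rose from 9.01, 9.89 and 9.22 to 11.70, 11.71 and 12.46, and no HR7 value came near the HR3 range. AQP3 rose by 1.64 ± 0.30 and AQP5 by 1.09 ± 0.32, while AQP1, a channel of vessels, fell by 0.69 ± 0.18 with signals below or at the array median. SCNN1A, a subunit of the epithelial sodium channel, rose by 1.66 ± 0.21 and SLC1A1, a glutamate transporter, by 1.95 ± 0.42. Glucose carriers were among those that rose, with SLC2A1 at 1.04 ± 0.28 beside SLC5A1. SLC7A5, a carrier of large neutral amino acids, fell by 0.92 ± 0.21. CFTR, the chloride channel, rose by 0.71 ± 0.11 on the probe set with the strongest signal, and fell by 1.33 on the other. Without HR3 replicate 1, HR3 replicate 2, HR3 replicate 3 or HR7 replicate 2, 1 of these genes fell in place of 2.

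Among 55 genes of cholesterol and fatty acid metabolism 16 rose and 2 fell (median 0.28). Next to DGAT2, FABP3 and LPL, the long-chain acyl-CoA synthetase ACSL3 rose from 9.15, 9.37 and 9.29 to 10.94, 11.22 and 10.85 (1.73 ± 0.16, adjusted p = 4.83e-05). PLIN2, which coats lipid droplets, rose from 9.10, 9.15 and 9.22 to 10.17, 10.46 and 10.27. Both genes varied little between pools. SREBF1, the transcription factor of lipid synthesis, rose by 1.04 ± 0.27, and enzymes of cholesterol synthesis rose by less, such as NSDHL by 0.75 ± 0.16 and LSS by 0.59 ± 0.16. APOE, the apolipoprotein, fell by 1.15 ± 0.19, and FADS2 was the other gene to fall. The number of these genes that rose fell to 8 without HR3 replicate 1 or HR7 replicate 2 and to 10 without HR3 replicate 2 or HR7 replicate 1.

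Of 27 genes of protein folding in the endoplasmic reticulum (ER) and of its stress response, the counts were 13 risen and 1 fallen (median 0.43). ERO1A, the oxidase that drives disulfide bond formation, had signals of 5.27, 4.69 and 5.05 in HR3 and 7.69, 8.47 and 8.08 in HR7. Its second probe set, of weaker signal in HR7, gave a difference of 0.50 that did not pass. SDF2L1, an ER cochaperone, rose from 7.47, 7.32 and 7.07 to 8.88, 9.0 and 8.71, and SYVN1, a ubiquitin ligase of ER-associated degradation, rose by 1.40 ± 0.21. The chaperone HSPA5 (BiP) rose by 0.48 ± 0.13 from strong signals, whereas CREB3L2, a membrane-bound transcription factor, fell by 0.55 ± 0.17, and did not pass when any one HR pool was left out. Of 48 genes of ER translocation and of the vesicle coats, 17 rose and none fell (median 0.24). They included SEC61G and SEC61B, subunits of the channel through which nascent proteins enter the ER, at 0.72 ± 0.11 and 0.54 ± 0.13. SAR1B and SAR1A, the GTPases that start COPII vesicles, rose by 1.17 ± 0.17 and 0.95 ± 0.13 from signals below the array median, and KDELR3, a receptor that returns ER proteins, by 1.02 ± 0.26. The count of 13 fell to 7 without HR3 replicate 1, HR7 replicate 1 or HR7 replicate 2, and that of 17 to 11 without HR3 replicate 3.

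Of 36 genes of mucins and glycosylation 9 rose and 1 fell (median 0.39, 27.8% called against 18.7% of all genes). FUT2, the fucosyltransferase of secretory epithelia, rose from 6.10, 5.93 and 5.23 to 8.95, 8.46 and 8.41 (2.85 ± 0.34). FUT1, its close relative, rose by 1.72 ± 0.35 from weak signals. C1GALT1, which extends the core of mucin-type O-glycans, rose by 1.67 ± 0.28, and its chaperone C1GALT1C1 by 0.55 ± 0.09. AGR2, a disulfide isomerase needed for mucin assembly, rose from 12.42, 12.10 and 11.93 to 13.78, 13.65 and 13.43. MUC1 itself, as given above, did not pass. ST3GAL5, a sialyltransferase of gangliosides, fell by 0.88 ± 0.16, and without HR7 replicate 3 a second gene fell.

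Of 73 nuclear genes of the respiratory chain and ATP synthase 28 rose and 1 fell, and 44 did not pass. The median difference was 0.29, and 70 of the 73 were above 0, with a range from -0.47 to 0.90. Subunits of every complex took part: 10 of 37 genes of complex I, 2 of 4 of complex II, 4 of 9 of complex III, 5 of 8 of cytochrome c oxidase and 7 of 15 of ATP synthase rose. The largest difference was that of NDUFB6, a complex I subunit, with 10.01, 10.13 and 10.03 in HR3 and 10.77, 11.09 and 11.01 in HR7 (0.90 ± 0.11). COX7A2 rose by 0.59 ± 0.12, COX6A1 by 0.58 ± 0.17, UQCRB by 0.56 ± 0.12 and NDUFB5 by 0.56 ± 0.13. NDUFA5 fell by 0.47 ± 0.13 on its strongest probe set, while another of its probe sets rose by 0.44, and the fall did not pass when any one HR pool was left out. The differences were small, and the count of 28 was 8 without HR3 replicate 1, 9 without HR7 replicate 2, 13 without HR3 replicate 2 or HR7 replicate 3, 17 without HR3 replicate 3 and 20 without HR7 replicate 1. Cytosolic ribosomal proteins had no member that passed among 61 by limma (median 0.11, range -0.25 to 0.34), although 6 had an unadjusted p under 0.05. The ordinary linear model called 1, and 4 rose with each array centred on its median.

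Of 35 genes of glycolysis and the citric acid cycle, 7 rose and 1 fell (22.9% called, against 18.7% of all genes). OGDH, a subunit of the oxoglutarate dehydrogenase of the citric acid cycle, rose from 9.96, 10.06 and 10.06 to 11.35, 11.44 and 11.17 (1.29 ± 0.18). PC, the pyruvate carboxylase that refills the cycle, rose by 0.85 ± 0.16, and the mitochondrial isocitrate dehydrogenase IDH2 by 0.82 ± 0.15. ALDOA, a glycolytic aldolase, rose by 0.74 ± 0.11. PCK1, an enzyme of gluconeogenesis, fell by 1.11 ± 0.31 but lay below the array median in every pool and did not pass without HR3 replicate 1, HR3 replicate 2, HR3 replicate 3, HR7 replicate 1 or HR7 replicate 3.

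Antioxidant genes and targets of the transcription factor NRF2 had 16 members that rose and 1 that fell among 50. TXNRD1, the thioredoxin reductase of the cytosol, rose from 9.32, 9.58 and 9.56 to 11.24, 10.99 and 10.97 (1.58 ± 0.21). GCLC, which limits glutathione synthesis, rose from 5.83, 7.08 and 7.18 to 8.43, 8.62 and 8.09. HMOX1, the inducible heme oxygenase, rose by 1.5 ± 0.25, SRXN1, which repairs peroxiredoxins, by 1.46 ± 0.19, and GSTA2, a glutathione transferase, by 1.61 ± 0.24. The median of the list was 0.045, close to the -0.03 over all genes. ME1, the malic enzyme that supplies NADPH, fell by 0.67 ± 0.18 and passed among the fits without one HR pool only without HR7 replicate 1. The count of 16 was 10 without HR3 replicate 1 or HR3 replicate 3.

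Of 57 genes of the cell cycle and DNA replication 16 fell, 1 rose and 40 did not pass, and the median was -0.48. All 5 subunits of the MCM helicase on the array (MCM3, MCM4, MCM5, MCM6 and MCM7), which unwinds DNA ahead of the replication fork, fell, with differences from -1.23 to -0.87. MCM7 had signals of 10.64, 10.79 and 10.97 in HR3 and 9.78, 9.47 and 9.75 in HR7, and MCM4 had 8.89, 9.71 and 9.70 against 8.36, 8.25 and 7.99. TYMS, which makes thymidylate, fell by 0.98 ± 0.22, CDT1, which loads the helicase, fell by 0.93 ± 0.20, and PCNA, the sliding clamp of DNA polymerase, by 0.63 ± 0.16. The one member that rose was CCNB1, the cyclin that drives entry into mitosis, from 6.05, 6.50 and 6.99 to 9.24, 9.04 and 9.0 (2.58 ± 0.42). Its partner kinase CDK1 differed by -0.01 and CCNB2 by -0.19, and neither passed. The checkpoint kinase CHEK1 fell by 1.13 ± 0.24 and GADD45A, a growth arrest gene, by 0.75 ± 0.18. In all, 5 of 23 genes of DNA damage and repair fell and 1 rose (26.1% called, against 18.7% of all genes). SESN2, a stress-induced regulator of growth signaling, was the one that rose (0.66 ± 0.16), but not without HR3 replicate 2. The count of 16 fell to 6 without HR7 replicate 2, 8 without HR3 replicate 2 and 9 without HR3 replicate 3. The count of 5 fell to 1 without HR3 replicate 2 or HR7 replicate 2, 2 without HR3 replicate 3 and 3 without HR7 replicate 1 or HR7 replicate 3.

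Of 46 regulators of chromatin and DNA methylation 11 fell, none rose and 35 did not pass (median -0.27). The share called was 23.9%, against 18.7% of all genes. UHRF1, which guides maintenance methylation to newly made DNA, fell from 7.87, 8.78 and 8.84 to 7.01, 7.01 and 6.53 (-1.65 ± 0.37). PHF19, a subunit of the Polycomb machinery, fell by 1.76 ± 0.34. DNMT3A, a de novo DNA methyltransferase, fell from 7.64, 8.12 and 8.31 to 7.08, 7.39 and 7.31 (-0.76 ± 0.19, adjusted p = 0.0199). The maintenance enzyme DNMT1 differed by -0.53 ± 0.20 (adjusted p = 0.105) and DNMT3B by 0.11 ± 0.26, and neither passed. SMARCA1 fell by 0.75 ± 0.18, KDM1A, a histone demethylase, by 0.63 ± 0.10 and CHD4, a remodeling enzyme, by 0.58 ± 0.09. The count of 11 was 6 or 7 without any HR pool except HR7 replicate 3, and 8 without that one.

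Of 25 immediate early genes 6 fell, 2 rose and 17 did not pass (median -0.38). JUN, a subunit of AP-1, fell from 11.45, 12.02 and 11.79 to 9.78, 10.39 and 10.33 (-1.59 ± 0.21, adjusted p = 0.00059), and JUND fell by 0.72 ± 0.15. FOSL1, another AP-1 subunit, rose instead, from 4.40, 5.47 and 5.32 to 7.20, 6.84 and 6.84. IER3, an early response gene, fell by 1.36 ± 0.32 and MYC by 0.65 ± 0.15, while CCN2 (connective tissue growth factor) rose by 1.35 ± 0.29. Without HR7 replicate 2, 3 genes of the list fell, and without HR3 replicate 2, 5 rose. Of 27 Krüppel-like, AP-2, CEBP and ETS factors and their like, 5 fell and none rose (18.5% called, against 18.7% of all genes). Without HR3 replicate 2, 1 of them rose. KLF11 fell from 10.32, 10.27 and 10.20 to 7.72, 8.06 and 8.76 (-2.08 ± 0.26), and SOX4 from 10.10, 10.15 and 10.58 to 8.85, 8.60 and 8.58. KLF10 fell by 0.81 ± 0.13, ETS1 by 1.04 ± 0.17 and MYB by 1.06 ± 0.31.

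HOX genes and other factors of the Müllerian tract, which lay down the identity of the uterus, had 3 members that fell and none that rose among 18. The share called was 16.7%, against 18.7% of all genes. At an unadjusted p under 0.05, 9 of the 18 fell and none rose, where 34.3% of all genes passed in either direction. Of the 18 differences 14 were below 0. Without one HR pool the count of falls lay between 2 and 4. The 3 that fell were MEIS1 (10.29, 10.35 and 10.49 in HR3, and 9.72, 9.44 and 9.66 in HR7), HOXD10 at -0.76 ± 0.16 and EMX2 at -0.58 ± 0.17. HOXA9 differed by -1.21 and did not pass (adjusted p = 0.05255). HOXA10 had weak signals and differed by -0.78 ± 0.34 (adjusted p = 0.151). HOXA5 had 10.34, 10.33 and 10.35 in HR3 and 9.93, 9.82 and 10.13 in HR7, and did not pass (adjusted p = 0.0709). Its values did not overlap between the days, which held for 34.7% of all probe sets.

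Wnt and hedgehog genes changed in both directions, 3 up and 6 down of 27. WNT11, a Wnt ligand, rose from 4.84, 5.35 and 5.29 to 7.88, 8.20 and 7.59 (2.73 ± 0.50), and LGR4, a receptor that strengthens Wnt signaling, by 0.58 ± 0.11. On the other side, AXIN2, a feedback target of the Wnt pathway, fell from 7.61, 7.71 and 7.75 to 6.44, 6.20 and 6.75. LEF1, a nuclear factor of the same pathway, fell by 1.87 ± 0.39. The receptor FZD10 fell by 2.0 ± 0.25 and SMO, the signal transducer of hedgehog, fell by 2.10 ± 0.31. The secreted antagonists SFRP4 and DKK3 also fell, and DKK3 fell by 1.98 ± 0.48. Among 27 genes of TGF-beta and activin signaling, CRIPTO and BMPR2 rose and 4 fell (22.2% called, against 18.7% of all genes). Only 2 fell without HR7 replicate 2, and 1 rose when any one HR pool was left out. LTBP1, which stores latent TGF-beta in the matrix, fell from 5.36, 7.93 and 7.45 to 3.60, 3.98 and 3.63, with a low value in HR3 replicate 1. No member of the insulin-like growth factor axis passed among 17 by limma, while 3 had an unadjusted p under 0.05 and the ordinary linear model called 0. Without HR7 replicate 3, 1 gene of this list fell (IGFBP7 came nearest with all pools, at -2.05 ± 0.65 and an adjusted p of 0.0537).

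Of 47 genes for collagens and matrix proteins 14 fell and 3 rose, with a median of -0.57. LUM (lumican), a proteoglycan of fibrous matrix, had 10.81, 11.30 and 10.98 in HR3 and 8.25, 8.19 and 10.17 in HR7, and COL15A1 had 9.68, 9.88 and 9.31 against 7.25, 7.14 and 8.97. DCN (decorin) had 11.11, 11.39 and 10.83 against 8.48, 8.91 and 11.12, and COL3A1, a main fibrillar collagen, 12.16, 12.20 and 11.73 against 9.35, 10.35 and 12.69. In LUM and COL15A1 HR7 replicate 3 lay just below the HR3 pools. In DCN and COL3A1 it reached or passed them, and neither DCN (adjusted p = 0.137) nor COL3A1 (0.267) passed. FBN1 (fibrillin) fell by 1.76 ± 0.31 and FBLN1 fell by 1.65 ± 0.27. The 3 genes that rose were COL21A1 (2.0 ± 0.58), THBS1, which encodes thrombospondin (1.15 ± 0.21), and P4HA1, which hydroxylates procollagen (0.64 ± 0.11). The number of matrix genes that fell was 19 without HR7 replicate 3, 9 without HR3 replicate 1 or HR7 replicate 1, and 6 without HR3 replicate 2 or HR7 replicate 2.

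Of the 21 stroma markers 6 fell and 1 rose, or 9 fell without HR7 replicate 3 and 3 without HR3 replicate 2, HR7 replicate 1 or HR7 replicate 2. The one that rose was S100A4, a calcium-binding protein that migrating cells and leukocytes also make, from 9.66, 9.31 and 9.54 to 13.19, 12.71 and 12.87 (3.42 ± 0.23). The summed signal of all 21 overlapped between the days (14.11 to 14.42 on the log2 scale in HR3 and 13.88 to 14.75 in HR7). Without S100A4, the summed signal of the other 20 markers was 14.31, 14.38 and 14.04 in HR3 and 12.96, 13.03 and 14.29 in HR7. Only HR7 replicate 3 then overlapped HR3. Since S100A4 was the one marker that rose, leaving it out lowered the HR7 sums more than the HR3 sums, and no conclusion is drawn from it. In bulk samples such as these, fewer cells of a type and less RNA per cell cannot be told apart. Endothelial markers summed to 11.95 to 12.02 in HR3 and to 11.38 to 11.54 in HR7. Of the 25, 4 fell, among them the vessel protein EMCN (-2.08 ± 0.46), and LYVE1 rose by 1.25 (20% called, against 18.7% of all genes). However, 21 of the 25 lay below the array median in all HR pools. The count of falls was 2 without HR3 replicate 1, HR3 replicate 2 or HR7 replicate 1. Smooth muscle, B cell and red blood cell lists gave 1 rise and 1 fall of 15, 3 rises of 12 and 1 fall of 10. The shares called were 13.3%, 25% and 10%, against 18.7% of all genes. The smooth muscle fall passed only without HR7 replicate 3 among the fits without an HR pool. Without HR7 replicate 1 the B cell list had 1 rise and the red blood cell list 2 falls, and 1 B cell marker fell without HR3 replicate 3 or HR7 replicate 3. The part of these cell types in the fall of the matrix genes was not tested.

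**Figure D3:**
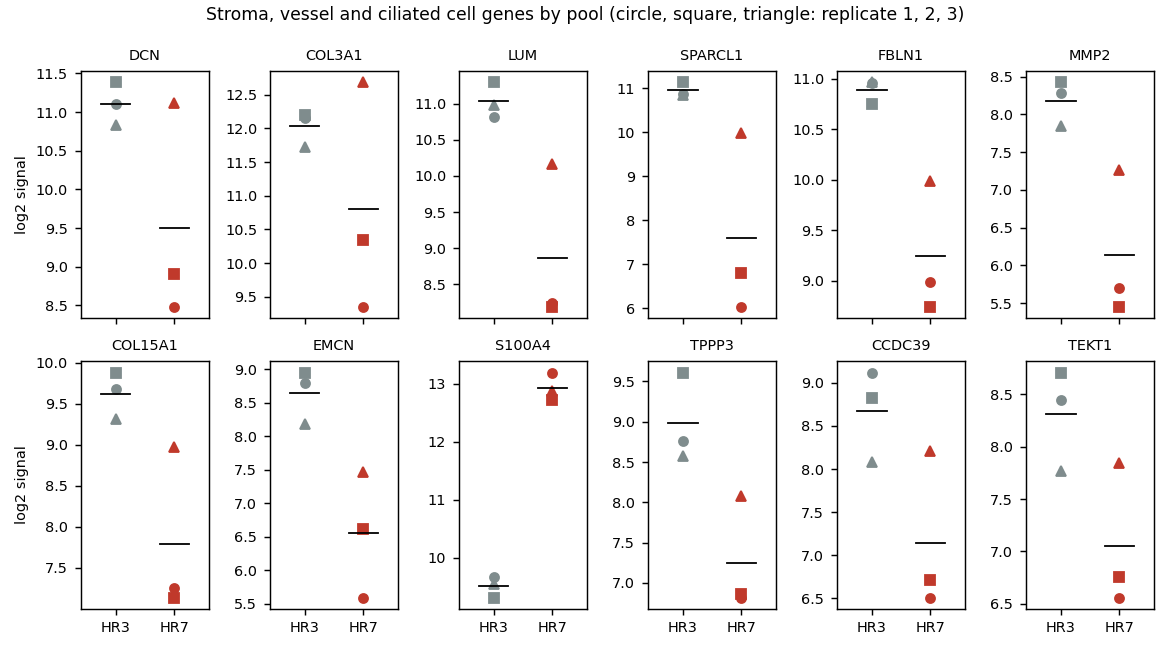
Log2 signal (vertical axes, a scale for each gene) of 9 stroma and vessel genes and 3 ciliated cell genes in each HR3 (grey) and HR7 (red) pool; circle, square and triangle stand for replicate 1, 2 and 3, and a line marks the mean of 3 pools. HR7 replicate 3 is the highest HR7 pool in every panel except S100A4.

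Of 31 matrix proteases and their inhibitors 7 rose and 1 fell (25.8% called, against 18.7% of all genes). Without HR7 replicate 2, 4 rose and 0 fell, and without HR3 replicate 3, 2 fell. TIMP2, an inhibitor of metalloproteinases, rose from 11.96, 11.78 and 11.77 to 12.95, 13.04 and 12.96 (1.15 ± 0.21). ADAM10, a sheddase of membrane proteins, rose by 1.0 ± 0.16, ADAMTS1, which cleaves proteoglycans, by 1.37 ± 0.18, and PLAU, the urokinase, by 1.34 ± 0.31. MMP13 rose from 4.48, 4.35 and 3.12 to 7.12, 8.42 and 5.61. MMP2, the gelatinase of stroma cells, fell from 8.28, 8.43 and 7.84 to 5.70, 5.45 and 7.26, with the highest day 7 value in HR7 replicate 3.

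Of 9 ciliated cell markers on the array 5 fell, all by more than 1 log2 unit, and the summed signal was 10.64 to 11.51 in HR3 and 9.71 to 10.61 in HR7. TPPP3, a tubulin-binding protein, had 8.76, 9.61 and 8.57 in HR3 and 6.82, 6.86 and 8.08 in HR7. CCDC39, which sets the spacing of arms along the axoneme, had 9.12, 8.83 and 8.08 against 6.51, 6.71 and 8.21, and here HR7 replicate 3 lay within the HR3 range. The count was 2 without HR3 replicate 1 and 1 without HR3 replicate 2, HR7 replicate 1 or HR7 replicate 2, and the ordinary linear model called 0.

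Of 24 basal and squamous epithelium markers 10 rose and 1 fell (median 0.57). Their summed signal lay between 14.20 and 14.41 in HR3 and between 14.89 and 15.06 in HR7, without overlap. Next to LY6G6C and KRT5, KRT15, a second keratin of basal cells, rose from 6.95, 7.55 and 6.84 to 10.17, 10.66 and 11.27 (3.59 ± 0.30), and KRT17 by 1.77 ± 0.25. S100A2, an S100 protein of basal cells, rose by 1.19 ± 0.14, and PKP1, a desmosome protein, by 1.20 ± 0.33. Several defining genes did not pass: KRT14, the usual partner of KRT5, differed by 0.38 from weak signals, and the cornified envelope genes TGM1 and TGM3 by 0.87 and -0.10. JUP (plakoglobin) fell by 0.50 ± 0.11, but not without HR7 replicate 2. Of the 24 markers 7 lay below the array median in all HR pools. The part of such cells in the rise of single genes was not tested.

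Inflammatory mediators rose more often than they fell (13 and 2 of 57, median 0.31, 26.3% called against 18.7% of all genes). Beside CXCL8 and CCL2, the neutrophil attractant CXCL2 rose from 8.58, 8.34 and 8.38 to 9.88, 9.59 and 9.97, and CD14, a receptor of bacterial lipopolysaccharide, from 8.83, 8.82 and 7.86 to 9.93, 10.68 and 9.79. TREM1, a receptor that amplifies inflammation, rose by 1.21 ± 0.28 from weak signals, and the acute phase gene SAA3 by 0.80 ± 0.17 from strong ones. IL18, an epithelial cytokine, rose by 0.98 ± 0.22. CXCL10, an attractant of T cells, fell from 8.64, 8.23 and 8.33 to 6.78, 6.87 and 6.91, and CSF1, the growth factor of macrophages, fell by 0.93 ± 0.18. The count of 13 was 7 without HR3 replicate 3 and 8 without HR7 replicate 2. Interferon-stimulated genes rose in 9 of 40 cases and fell in 1 (25% called, against 18.7% of all genes). Those that rose included ISG15 (8.30, 7.72 and 7.40 in HR3, and 9.62, 9.98 and 9.34 in HR7) and IFI27 at 2.33 ± 0.53. The count of 9 was 3 without HR3 replicate 2 or HR3 replicate 3 and 4 without HR7 replicate 1, HR7 replicate 2 or HR7 replicate 3. IRF8, a factor of myeloid and B cells, was the one that fell (-0.90 ± 0.18).

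Markers of leukocytes moved in different directions. Neutrophil markers rose in 9 of 18 cases and none fell, and their summed signal was 14.04 to 14.07 in HR3 and 14.57 to 14.93 in HR7. After leaving out the calgranulins and lactoferrin, which epithelia also make, the summed signal of the remaining 14 was 9.40, 9.29 and 9.46 in HR3 and 10.43, 10.92 and 10.13 in HR7. S100A9 rose by 2.31 ± 0.23, the chemokine receptor CXCR1 from 4.78, 3.91 and 4.62 to 7.91, 6.78 and 5.33, and the granule protein BPI by 2.10 ± 0.42. The granule enzymes MPO and ELANE lay below the array median in all HR pools, as did 10 of the 18 markers, and did not pass. Macrophage and dendritic cell markers rose in 7 of 22 cases, 4 of them without HR3 replicate 3 or HR7 replicate 2. CD68, a lysosomal protein, rose from 7.01, 7.12 and 7.12 to 8.80, 9.62 and 8.94, and CYBB, a subunit of the phagocyte oxidase, by 1.36 ± 0.25. The complement components C1QA and C1QC, made by tissue macrophages, differed by -0.78 and -1.11 and did not pass. The summed signal of this list was 12.07 to 12.55 in HR3 and 12.57 to 13.36 in HR7, and without FCGR2B the days overlapped (12.06 to 12.54 and 12.19 to 13.19). In both lists HR7 replicate 2 had the highest summed signal. The part of neutrophils and macrophages in the rise of the inflammatory genes was not tested.

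Of 28 T and NK cell markers 3 fell and 1 rose (14.3% called, against 18.7% of all genes). A difference below 0 was seen in 23 (median -0.58). However, 15 of the 28 lay below the array median in all HR pools, and none of the 9 with a mean signal above the median passed. The summed signal of all 28 was 11.52 to 11.66 in HR3 and 10.89 to 11.22 in HR7. GNLY (granulysin), a cytotoxic granule protein, had 5.89, 8.65 and 6.78 in HR3 and 3.35, 5.25 and 0 in HR7, which includes a pool listed at 0. CD2, a T cell adhesion molecule, fell by 0.82 ± 0.21, and CD69, an activation marker, rose by 1.94 ± 0.47. Only 1 marker fell without HR3 replicate 1, HR3 replicate 2 or HR7 replicate 2, and none rose without HR3 replicate 1, HR7 replicate 1 or HR7 replicate 2. The T cell receptor subunits CD3E and CD3D differed by -0.69 and -0.58 and did not pass. Of 12 genes of MHC class II, which presents antigen to T helper cells, 5 fell and 7 did not pass, with all 12 differences below 0. BOLA-DRA had 11.75, 12.17 and 12.28 in HR3 and 10.76, 11.25 and 11 in HR7, and BOLA-DMA fell by 1.08 ± 0.22. Genes of this family are near copies of each other, and whether their probe sets cross-hybridize was not tested. The class I heavy chain BOLA differed by -0.10 and B2M, its light chain, by 0.10, and neither passed.

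Complement and coagulation genes split evenly, with 5 risen and 4 fallen of 44, close to the shares over all genes. F3 (tissue factor), which starts coagulation, rose from 7.70, 8.19 and 8.52 to 11.05, 11.64 and 10.99 (3.09 ± 0.39). The protease receptor F2RL1 rose by 1.55 ± 0.26, whereas F2R, the thrombin receptor, fell by 1.25 ± 0.28 and PROS1, an anticoagulant cofactor, by 1.74 ± 0.40. Of the risen genes 3 passed without HR7 replicate 1 and 2 without HR7 replicate 2, and of the fallen 2 passed without HR3 replicate 2, HR3 replicate 3 or HR7 replicate 2.

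**Figure D4:**
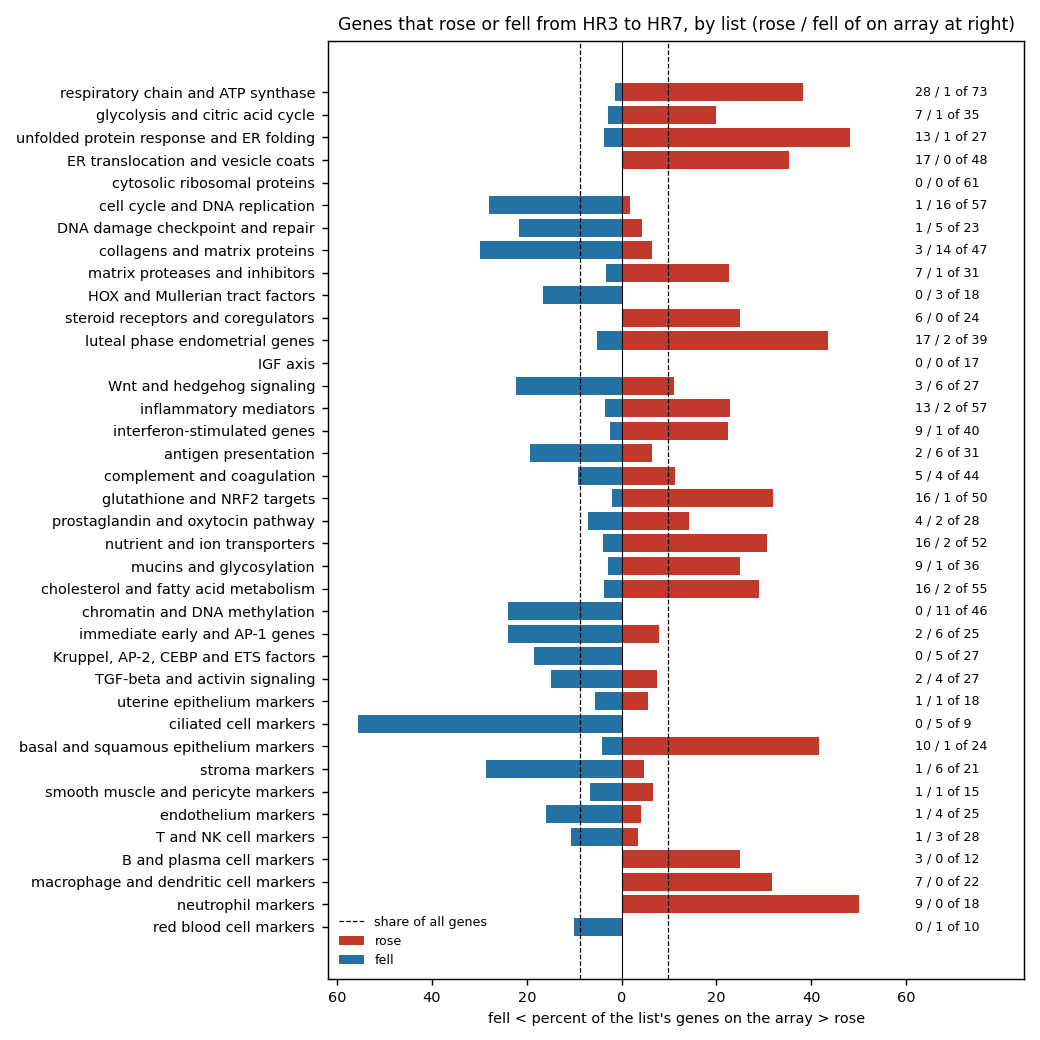
Share of each list's genes on the array that rose (red, to the right) or fell (blue, to the left) from HR3 to HR7, with the counts at the right edge; dashed lines mark the shares over all genes (9.86% rose and 8.84% fell). The respiratory chain has 28 of 73 genes risen, and the cell cycle list has 16 of 57 fallen.

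Some of the genes that rose were neighbours in the genome. In the order of protein-coding genes in the RefSeq table of the assembly ARS-UCD2.0, 4487 neighbouring pairs had both genes on the array. Of the neighbours of a gene that rose, 15.5% rose as well, against 9.63% of all genes in these pairs. For genes that fell the shares were 10.6% and 8.64%. Among the 67 pairs that rose together were S100A8 and S100A12, S100A12 and S100A9, ISG12(B) and IFI27, and the flavin monooxygenases FMO1 (2.69 ± 0.53) and FMO2 (1.17 ± 0.21). Several of these are relatives by duplication. No test was made of these shares.

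The study named a set of genes for the day in HR or measured them by quantitative PCR. Of those with a named probe set, KRT5, KRT15, PTGS2, HPGD, PIP and SLC6A14 rose, as did CAV2, a protein of caveolae, from 7.60, 7.43 and 7.49 to 8.31, 8.64 and 8.46. SLC6A14, an amino acid transporter, had 8.40, 8.64 and 8.27 in HR3 and 9.63, 10.05 and 10.05 in HR7 (1.47 ± 0.17). MYB and DNMT3A fell. IRF5, CRTC1, PYCARD, TFAP2A, PHF1 and DDX46 did not pass, with differences between -0.87 for DDX46 and 1.71 for TFAP2A. TFAP2A had weak signals of 5.43, 4.71 and 3.89 against 6.31, 6.01 and 6.85, which did not overlap but had an SE of 0.93. CEBPA, SATB1 and AP2S1 differed by at most 0.24 in either direction. The study listed IRF5, CRTC1, PYCARD, TFAP2A, PHF1 and CEBPA as changed between the days in HR. Its threshold was an unadjusted p under 0.05 after filters on present calls and spread. The calls given here need an adjusted p under 0.05 over all probe sets, so the results are not at the same threshold. In the study's day effect over HR and LR together, AP2S1 was higher and DDX46 lower on day 7, by array and by quantitative PCR. SATB1 was named there as a regulator predicted from its targets.

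Whether the change between the days differed between HR and LR was tested as an interaction. By limma, no probe set passed for this difference (smallest adjusted p 0.331), and 893 of 24016 had an unadjusted p under 0.05 (3.72%). The ordinary linear model also called 0, and the most in any other fit was 2, with 16 added to the signal. In LR 3586 probe sets changed between the days (14.9%). Of the 3463 probe sets that changed in HR, 3415 had the same direction in LR and 2193 also passed there. The genes named here with the lowest unadjusted interaction p were KRT15 (1.38e-05), FCGR2B (0.000132), SLC6A14 (0.000139) and SLC5A1 (0.000168). KRT15 differed by 3.59 in HR and by 0.68 in LR, SLC6A14 by 1.47 and 0.20, SLC5A1 by 4.28 and 1.51, and FCGR2B by 5.18 and 3.48. None of these differences between the groups passed over all probe sets. CXCL8 differed by 4.78 in HR and 1.63 in LR, and MYB by -1.06 and 0.09. The differences in HR and LR were 5.78 and 5.72 for PDZK1, 3.96 and 3.97 for SCARA5, and 4.87 and 5.10 for DGAT2.

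**Figure D5:**
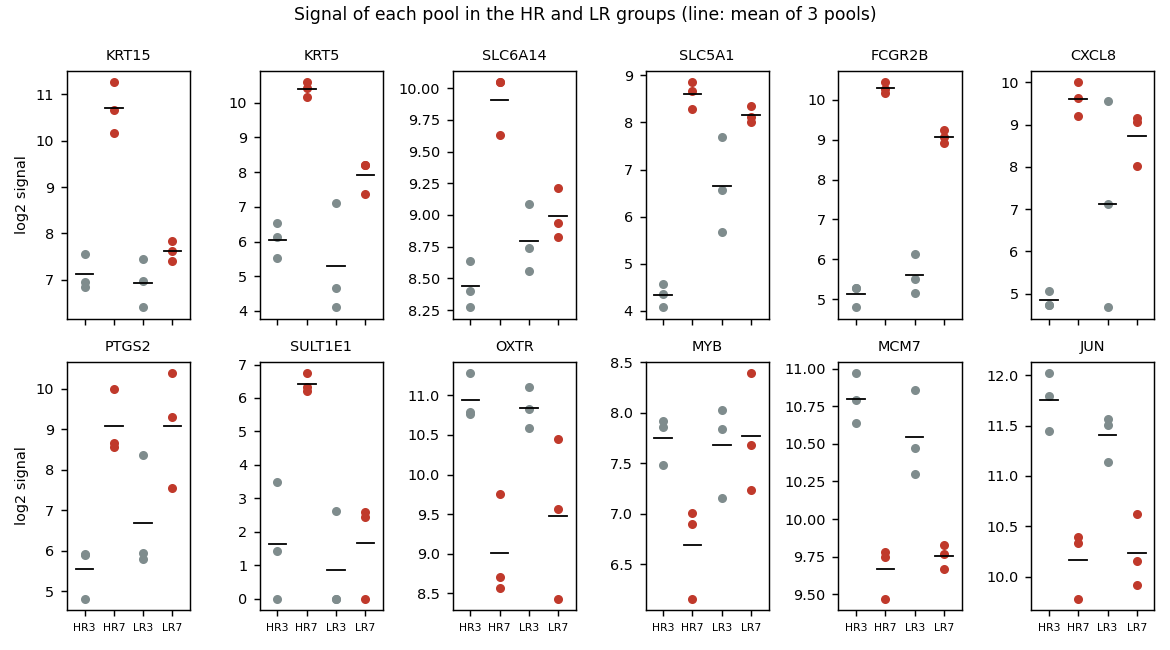
Log2 signal (vertical axes, a scale for each gene) of 12 genes in each pool of HR3, HR7, LR3 and LR7, grey for day 3 and red for day 7, with a line at the mean of 3 pools. KRT15 rose to between 10.17 and 11.27 in HR7, while MCM7, JUN and OXTR fell in HR and had a difference of the same sign in LR.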

How the data were processed

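Total RNA of 12 pools had been hybridized to the Affymetrix Bovine array, 1 pool per array. The deposited values are log2 signals that the authors made by PLIER, and the submitters' processing notes also name GCOS 1.1.1 and Affymetrix Expression Console. Present calls and probe sequences were not used here. Of 24128 entries, 112 controls were left out. Of 24016 probe sets, 13292 had 1 gene symbol, 86 several and 10638 none in the platform annotation, and probe sets with several symbols were not named. Arrays carry no read depth, and the number of pools limits the precision.

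Group means were fitted to all 12 arrays with limma 3.58.1 in R 4.3.3 (lmFit, eBayes with an intensity trend), with Benjamini-Hochberg adjustment, and the fit was tested on simulated data. The comparisons were HR7 minus HR3, LR7 minus LR3 and their difference. Named genes were the 15 in each direction under the conditions given in the text, up to 5 passing genes per list and direction, members that define a list, and genes the study named. Other list members (such as MYC, PCNA, SPP1 and LSS) and the neighbours FMO1, FMO2 and ISG12(B) were chosen after their values were seen. Of 1628 list genes 1186 were matched, 1174 by symbol, 4 by an older symbol and 8 by a RefSeq synonym (assembly ARS-UCD2.0, used for names and gene order only). The comparison and the lists were chosen with earlier results of these data known. Genes of near-identical sequence may share probes. Alternatives were other priors, filters, normalizations, weights, a block and fits without each pool.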

Additional observations from a re-analysis of the deposited data

How the results depend on the processing

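The count of 3463 probe sets lay between 2502 (ordinary linear model) and 3838 (only the 6 HR arrays) under the other priors, filters and normalizations, and none of the 3463 was called with the other sign in any setting. Array weights gave 5467, of which 2551 rose and 2916 fell. At an unadjusted p under 0.05, the threshold of the study, the counts were 6764 in all, 3128 risen and 3636 fallen, 893 for the difference between HR and LR, and 523 list members in place of 324. Without one pool, the counts ranged from 1851 to 3665 in all, from 1032 to 1849 risen and from 819 to 1816 fallen. The list members ranged from 191 to 336, and the difference between HR and LR gave 0 or 1 call. It gave 2 with 16 added to the signal and 1 without the intensity trend. The cause of these shifts was not tested.

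With the pool number as a replicate block 3235 probe sets were called. The deviations of pools with the same number correlated at 0.123, 0.120 and -0.0438, so the numbers were not taken to pair the samples.

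Averaging a gene's probe sets turned the sign of CFTR (-0.31) and NDUFA5 (0.037), whose probe sets changed in opposite directions. Another 24 of 193 named genes that had passed no longer passed after averaging. Of the 2913 genes with several probe sets, 590 had probe sets that differed in call.

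The median SE of probe sets below the median signal was 0.29, so small differences of weak transcripts were not detectable with 3 pools a day.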
